A study of Populus deltoides x Populus x canadensis with 6 samples.

Results

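A set of 100 stem genes of hybrid poplar was examined whose RNA was abundant in the wild type and lowest, relative to the wild type, in a brassinosteroid receptor mutant. The genes were chosen by their measured levels in these same libraries. Counts were expressed as CPM, the count scaled to a common column total, and the genes with a Potri identifier and a wild type mean of at least 20 CPM were ranked by the ratio of mutant to wild type means, each with 1 CPM added. A stretch of chromosome 8 was left out of the ranking. Of 35792 rows in the table, 11151 were ranked, and the 100 genes with the lowest ratio were taken, 0.897% of those ranked. The contrast between genotypes thus selected the members, and their differences are given below as a description. Calls by the fit across all genes are counted for them only beside the share called among all genes, and support nothing.

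RNA was sequenced from the leafless basal stem, 2 cm long, of 45-day-old greenhouse plants of the hybrid poplar clone Nanlin 895 (Populus deltoedes × Populus euramericana, as the labels spell it). The wild type and a line with the genotype label pdbri1-1;2;3;6 were each represented by 3 libraries, and each library was a pool of 30 plants. Both groups shared the clone, the age and a day of 16 h of light and 8 h of dark. How the mutations were made, and whether the mutant line goes back to 1 plant, is not given in the sources used here. Totals ran from 17752822 to 21096052 counts per library.

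BRI1 is the receptor kinase at the plasma membrane that binds brassinosteroids, the steroid hormones of plants. Binding starts a phosphorylation cascade that lets transcription factors of the BZR1 family act on their target genes. In stems the hormone is known for its part in cell elongation, in the activity of the vascular cambium and in the differentiation of xylem and phloem. Identifiers in the table come without gene names, and the symbol column of the members repeats the identifier in 99 cases and is empty in 1. The members are therefore named by identifier and carry no role here. For the same reason the receptor genes and the marker genes of stem tissues were not looked up, and the genotype and tissue labels were not checked against them.

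Most members were reduced in the mutant rather than lost. The mutant mean stood at 0.0142% to 26.8% of the wild type mean, with a median of 19.1%. It was at most 1% for 4 members, above 1% and up to 5% for 10, and above 5% and up to 10% for 11. A further 31 members stood between 10% and 20%, and 44 stood above 20%. No member (0 of 100) was without counts in all mutant libraries, and 1 had no count in at least 1 of them. In 96 members each mutant library held at least 10 counts. The mutant mean was under 1 CPM for 5 members, between 1 and 20 CPM for 62, and at 20 CPM or more for 33. RNA came from whole pieces of stem, so fewer cells of a type and less RNA per cell cannot be told apart.

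**Figure D1:**
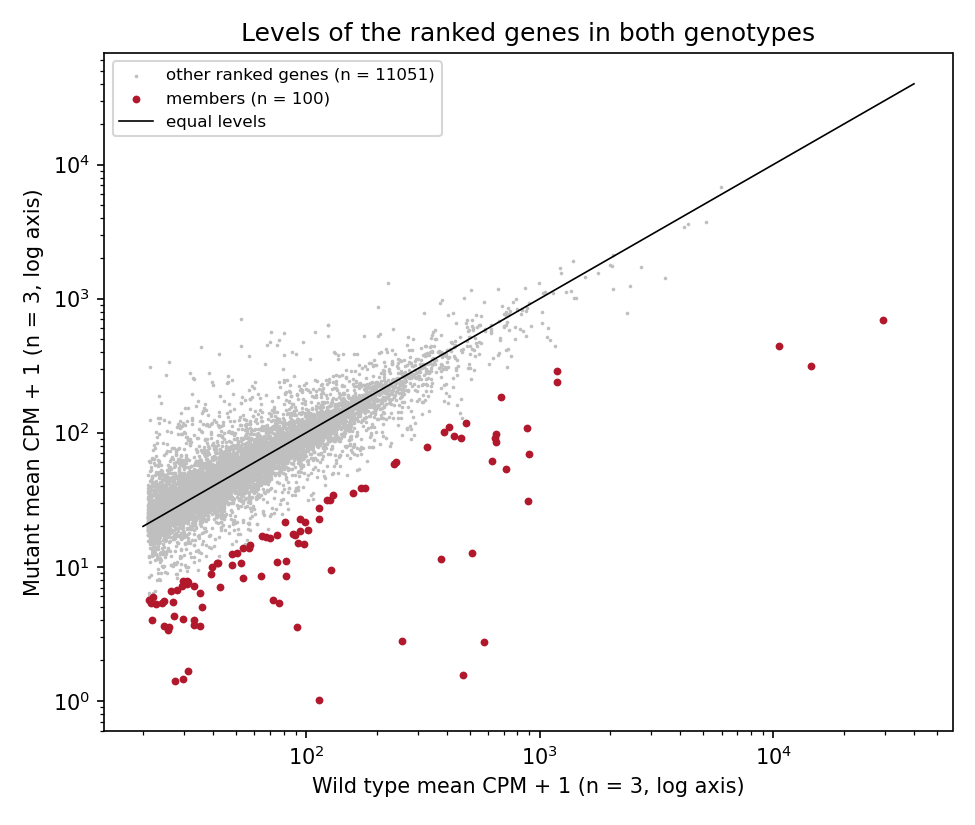
Mean CPM + 1 in the wild type (x axis) against the mutant (y axis), both on log axes and each over 3 libraries, for the 11151 ranked genes. The 100 members, in red, form the lower edge of the cloud, from 0.0142% to 26.8% of the wild type level, and the line marks equal levels.

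The fitted differences of the members are set beside those of all genes. By edgeR's quasi-likelihood test on all 27382 genes that passed the filter on low counts, 31% were called lower in the mutant and 1.43% were called lower by at least 4-fold. Among the ranked genes those shares were 48.3% and 0.986%. All 100 members passed the filter, and each was called lower and by at least 4-fold, as their selection from the same contrast leads to. Their median log2 fold change of mutant over wild type was -2.51, beside 0.01 for all tested genes and -0.11 for the ranked genes. The highest value was -2.02, and 17 members stood at least 16-fold lower. The lowest, -12.30, belongs to a gene with 1 count in the mutant and depends on the prior count of the fit. All mutant libraries lay under all wild type libraries for each of the 100 members, and for 22.6% of all tested genes and 33.5% of the ranked genes.

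The limit of 100 cut through a continuous run of ratios. The last members inside were Potri.004G149100.v4.1, at 408.94 ± 4.34 CPM in the wild type and 109.32 ± 8.78 CPM in the mutant, and Potri.002G191000.v4.1, at 684.17 ± 13.93 and 183.5 ± 10.05 CPM (mean ± SD, n = 3, as for all such values below). Both had a ratio of 26.9%. The first genes outside were Potri.009G093300.v4.1, at 53.5 ± 0.271 and 13.9 ± 1.67 CPM with a ratio of 27.3%, and Potri.014G102466.v4.1, at 33.3 ± 2.16 and 8.39 ± 1.04 CPM with a ratio of 27.4%. Among the ranked genes 345 stood at or under 50%, and the median ratio was 101%. Of 55 genes at 20 CPM in the stretch of chromosome 8 that was left out, 2 had a ratio no higher than the last member, as had 1 of 57 such rows without a Potri identifier.

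The members nearest to complete loss were 4 genes on chromosomes 4, 10, 13 and 16. Potri.004G212900.v4.1 (539 bp) held 122, 113 and 103 CPM in the wild type libraries, and a single count in mutant replicate 1 was its only one in the mutant. Potri.010G116300.v4.1 (2063 bp) held 453, 471 and 481 CPM in the wild type and 1.20, 0.169 and 0.273 CPM in the mutant. Its mutant replicate 1 thus stood above the other 2 mutant libraries, with 25 counts against 3 and 5, and all 3 lay far under the wild type. Without that library 0.0471% of the wild type level was left, against 0.117% with it.

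Taken over summed counts, Potri.010G116300.v4.1 kept 0.124% of the wild type level, with a 95% exact interval of 0.0851% to 0.174%, and Potri.004G212900.v4.1 kept 0.0157% (0.000397% to 0.0874%). Without mutant replicate 1, Potri.004G212900.v4.1 had 0 counts, which allows up to 0.0737% of its wild type level (3 counts over the other 2 libraries). Intervals and limits cover counting error only. Potri.016G057600.v4.1 (1514 bp) held 568, 553 and 599 CPM in the wild type and 1.54, 2.31 and 1.36 CPM in the mutant. The fourth, Potri.013G007900.v4.1 (828 bp), held 269, 280 and 221 CPM in the wild type and 1.78, 1.92 and 1.64 CPM in the mutant. Wild type replicate 3 was the lowest of its group for this gene, and the mutant libraries lay close together.

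A second step held 10 members with 1% to 5% of the wild type level left, and it contained the most abundant members of all. Below these in level, Potri.004G019900.v4.1 held 501, 505 and 525 CPM in the wild type and 12.4, 11.4 and 10.8 CPM in the mutant. Potri.016G104300.v4.1 held 385, 411 and 336 CPM in the wild type and 11.3, 10.3 and 9.70 CPM in the mutant. The spread between libraries was a small part of either difference.

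Potri.017G051100.v4.1 stood at 890.5 ± 30.3 CPM in the wild type and 29.99 ± 1.83 CPM in the mutant, 29.7-fold lower. Potri.001G093100.v4.1 stood at 90.03 ± 3.38 and 2.55 ± 0.341 CPM, 35.3-fold lower. Low-abundance members of the same step, singled out after their values were seen, were Potri.013G013900.v4.1, Potri.003G156900.v4.1 and Potri.014G078000.v4.1. They had wild type means of 28.6, 26.4 and 30.3 CPM and mutant means of 0.443, 0.415 and 0.682 CPM. The added 1 CPM placed them at ratios of 4.88% to 5.37%, although 1.55% to 2.25% of their level was left. In Potri.013G013900.v4.1, mutant replicate 3 held 16 counts and the other 2 libraries 6 and 3. Without that library 0.801% of the wild type level was left, against 1.55% with it.

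**Figure D2:**
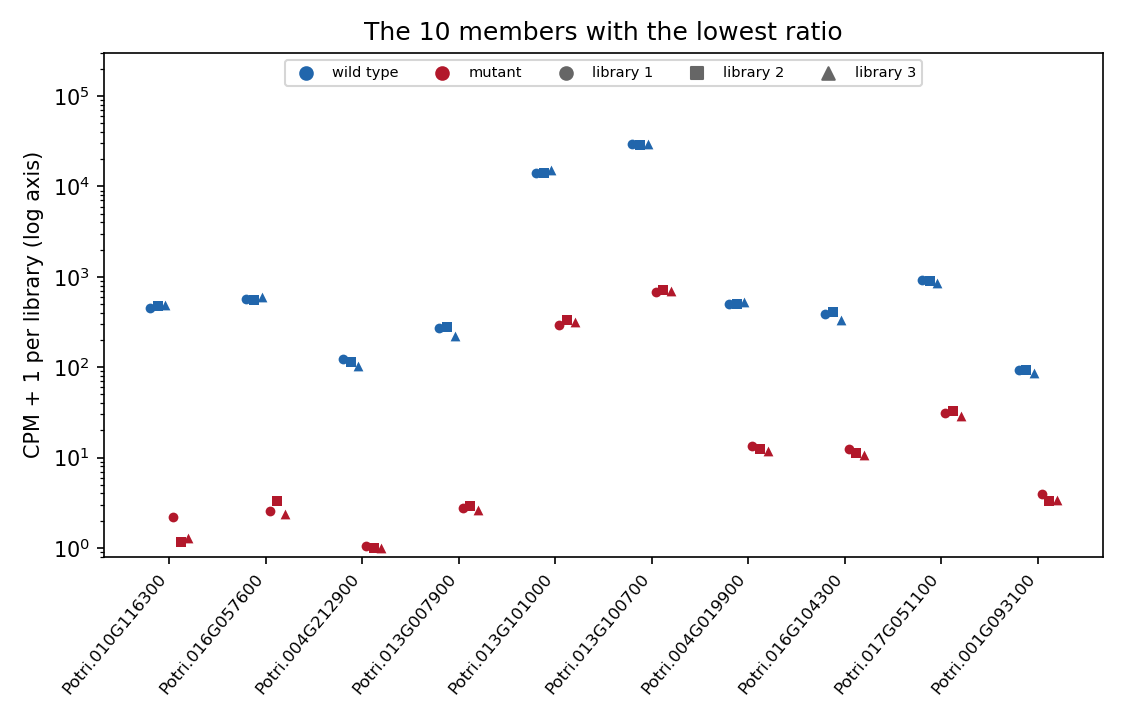
CPM + 1 per library, on a log axis, for the 10 members with the lowest ratio, with wild type libraries in blue and mutant libraries in red and 1 symbol for each library number. In each gene the red points lie under the blue ones, and for Potri.010G116300 the mutant library 1 stands apart from the other 2.

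Some of the most abundant transcripts of the wild type stem belonged to the set. Per gene length and library total (FPKM), 3 members stood among the 10 highest genes of the wild type, 11 among the highest 100 and 40 among the highest 1000. In the mutant 0, 1 and 8 members stood in these classes. The median rank of the members was 2148 in wild type stems and 15278 in mutant stems. Potri.013G100700.v4.1 ranked 1 in wild type stems and 69 in mutant stems, Potri.013G101000.v4.1 ranked 3 and 311, and Potri.013G100800.v4.1 ranked 5 and 171. The last of these had the widest spread of the 3 between wild type libraries, at 11900, 9001 and 10700 CPM, and replicate 2 was its lowest library.

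Together the members took 7.44%, 7.09% and 7.39% of all counts in the wild type libraries and 0.415%, 0.437% and 0.426% in the mutant libraries. The groups did not overlap, as the selection of the members from these same counts leads to. The mean share was 17.1-fold lower in the mutant. Without the 3 most abundant members, the other 97 took 1.86% ± 0.0124 in wild type stems and 0.282% ± 0.00497 in mutant stems, 6.59-fold lower. The mutant share of 0.426% thus came mostly from those 97 genes, and the wild type share mostly from the 3.

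**Figure D3:**
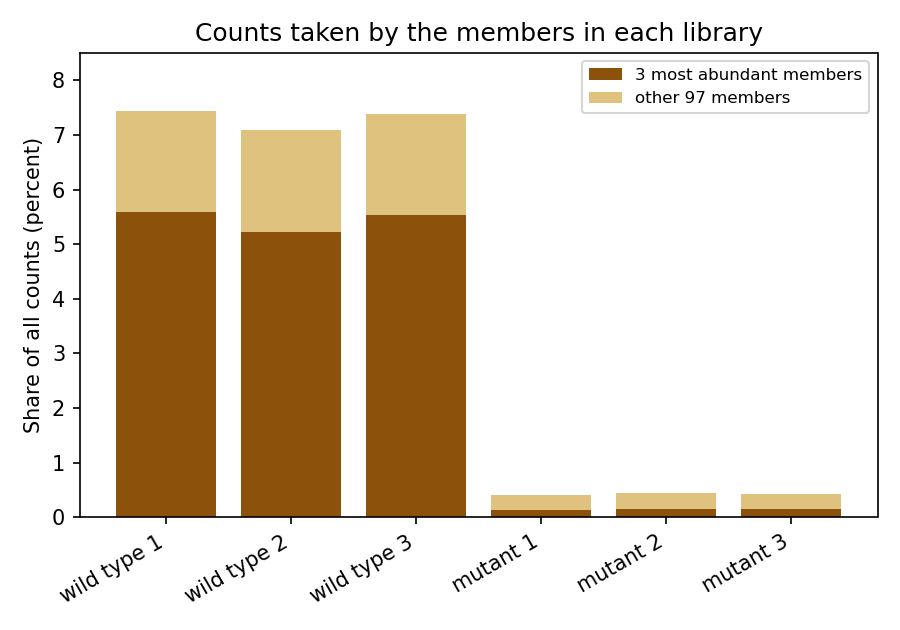
Share of all counts in each library, in percent, taken by the 3 most abundant members (dark) and by the other 97 (light), 1 bar per library. The wild type bars reach 7.09% to 7.44% and the mutant bars 0.415% to 0.437%.

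This share also entered the scale on which every other gene was measured. The genes outside the set summed to 926960 CPM in the wild type and 995740 CPM in the mutant, a ratio of 1.07 or 0.10 on the log2 scale. With library totals as the only scaling, the median log2 fold change of all tested genes was 0.13. With totals counted without the 100 members, a setting chosen after the data were seen, it was 0.03, and with TMM factors it was 0.01. The share of higher genes among all called genes was 66.8%, 53.9% and 51.6% in the same order. Of all tested genes 5820 of 27382, 8040 of 27364 and 8499 of 27382 were called lower, in the same order. Each member was called lower under all of these scalings, as their selection from the same libraries leads to.

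Further abundant members kept more of their level. Potri.003G138700.v4.1 (592 bp) stood at 899.73 ± 40.7 CPM in the wild type and 68.5 ± 1.52 CPM in the mutant, 13.1-fold lower. Potri.009G118800.v4.1 (2791 bp) stood at 714.72 ± 7.94 and 52.5 ± 3.79 CPM, 13.6-fold lower. Potri.004G123600.v4.1 (3665 bp) stood at 1182 ± 21.3 and 238.97 ± 3.52 CPM, and Potri.005G251000.v4.1 (3256 bp) at 1181 ± 20.4 and 288.59 ± 5.98 CPM. These last 2 were 4.95-fold and 4.09-fold lower in the mutant, and they were the only members above 1000 CPM in the wild type outside the 3 most abundant.

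Genes with many counts made up a larger part of the set than of the ranked genes, a difference that was not tested. Members were 5 of 35 ranked genes at 1000 CPM or more in the wild type (14.3%), 22 of 510 between 200 and 1000 CPM (4.31%), 35 of 4291 between 50 and 200 CPM (0.816%) and 38 of 6315 between 20 and 50 CPM (0.602%). The level left had medians of 4.16%, 13.5%, 19.2% and 19.4% in these classes. Of the 5 members at 1000 CPM or more, 3 were neighbours on chromosome 13, with 2.16% to 4.16% left. The share and median of this class thus rest largely on those neighbours. Its other members, Potri.004G123600.v4.1 and Potri.005G251000.v4.1, kept 20.2% and 24.4%. Adding 1 CPM to both means raises the ratios of low genes most. With 0.1 CPM added instead, 97 of the 100 members were chosen again, and the shares by level were not recounted.

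**Figure D4:**
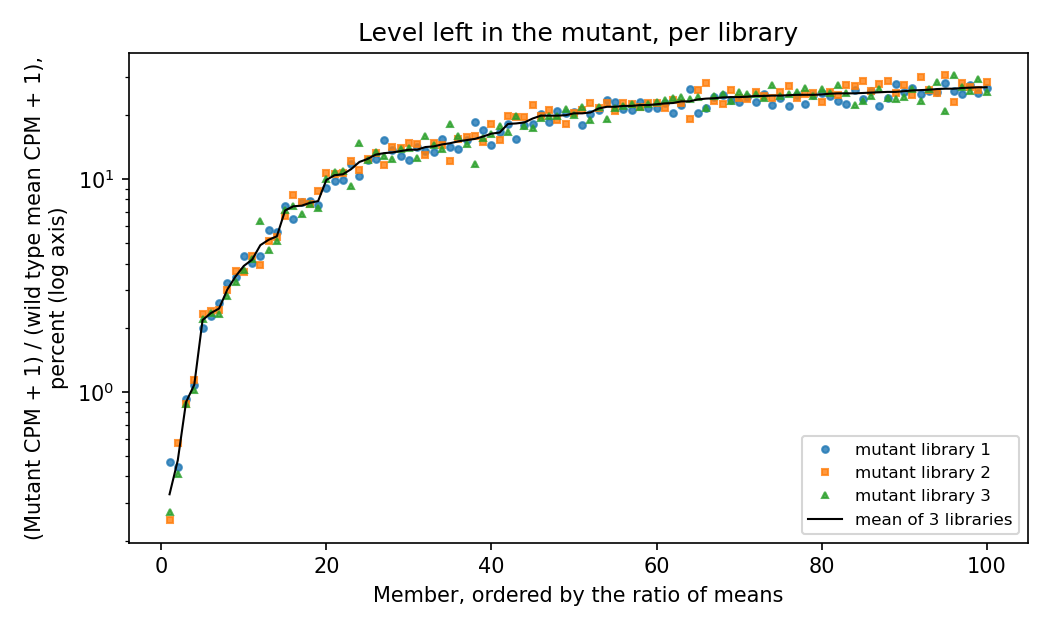
Mutant CPM + 1 as a percentage of the wild type mean CPM + 1, on a log axis, for the 100 members in the order of the rule. Points are the single mutant libraries and the line is the ratio of means, which rises from 0.33% to 26.9%, steeply over the first members and slowly from about 20% on.

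Replicates of 1 genotype gave similar levels for most members. The coefficient of variation over the 3 libraries had a median of 4.1% in wild type stems and 7.45% in mutant stems. The inverse square root of the mean count, the value for counting alone, had medians of 2.6% and 7.17%. That value was not adjusted for an estimate from 3 libraries, so the 2 kinds of median are not directly comparable. For the ranked genes the coefficient of variation had medians of 3.37% and 4.03% (in the mutant over genes of at least 1 CPM). It exceeded 20% for 1 member in the wild type and for 10 in the mutant. Among members above 1 CPM in the mutant, the widest spread was that of Potri.016G057600.v4.1 (29%), Potri.001G448400.v4.1 (28.4%) and Potri.014G039000.v4.1 (26.3%). Potri.001G448400.v4.1 held 23.7, 23.3 and 23.8 CPM in the wild type and 2.46, 1.97 and 3.43 CPM in the mutant. Potri.014G039000.v4.1 held 29.96, 33.3 and 33.0 CPM in the wild type and 2.41, 2.65 and 3.87 CPM in the mutant. Mutant replicate 3 was the highest of its group in both genes.

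The wild type exception, singled out after its values were seen, was Potri.016G124900.v4.1. It held 17.6, 28.1 and 16.4 CPM, so that wild type replicate 2 lifted its mean to 20.7 CPM. Without that library its mean was 17 CPM, under the minimum of the rule. Its mutant libraries held 3.76, 4.90 and 4.41 CPM, under each wild type library. Other members with wild type means near the minimum also fell under it without 1 wild type library, at 19.3 to 19.9 CPM. The mutant libraries were alike over the whole set, with median log2 ratios to the wild type mean of -2.29, -2.25 and -2.33. The highest mutant level was found in replicate 1 for 25 members, in replicate 2 for 45 and in replicate 3 for 30. Among the ranked genes the shares were 33.9%, 35.5% and 30.7% in the same order, and the difference was not tested.

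The low levels were also read in libraries left out of a repeated selection. The rule was repeated without the wild type and mutant libraries of 1 number, and the 100 genes so chosen were read in the 2 libraries left out. The median log2 ratio there was -2.32, -2.26 and -2.27 for numbers 1, 2 and 3, against -2.27, -2.28 and -2.31 in the libraries used. All 100 genes of each selection were at least 2-fold lower in the mutant library left out, and the highest ratios were -1.67, -1.12 and -1.60. All ranked genes had medians of 0.03, 0.01 and 0.01 in these libraries. Over all libraries, 345 of the 11151 ranked genes stood at or under 50%. The repeated selections shared 98, 95 and 97 genes with the members, whose libraries did not overlap between genotypes. These values are thus a description and no separate support.

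The members were spread over the genome. Each of the 19 chromosomes carried at least 1 member and the scaffolds outside them carried 0. The share of ranked genes taken was lowest on chromosome 11 (1 member, 0.277%) and highest on chromosome 13 (8 members, 1.85%), and chromosome 4 carried the largest number (11 members, 1.72%). Chromosome numbers were read from the identifiers. Members were shorter than the ranked genes, with a median length of 1452 bp against 2220 bp and quartiles of 1081 and 2267 bp against 1448 and 3252 bp. Lengths under 1000 bp were found for 23 members (23%) and 10.2% of the ranked genes. These differences were not tested.

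Some members stood beside each other. With a distance of at most 3 identifiers in the order of the table, 13 members fell into 6 neighbouring groups, 5 pairs and 1 group of 3, and 87 stood alone. Sequences were not compared, and close copies could exchange reads, so the values of single genes within a group are uncertain.

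The group of 3 on chromosome 13 held the most abundant members, with similar lengths of 1381, 1369 and 1448 bp. Potri.013G100700.v4.1 stood at 2.34% of its wild type level in the mutant, Potri.013G100800.v4.1 at 4.16% and Potri.013G101000.v4.1 at 2.16%. Their proportions among themselves differed between genotypes. Potri.013G100800.v4.1 made up 21.3%, 17.3% and 19.3% of the counts of the 3 genes in the wild type libraries and 30.5%, 30.4% and 30.4% in the mutant libraries, so that all mutant values lay above all wild type values. Potri.013G100700.v4.1 made up 54.1% ± 1.22 in wild type stems and 47.8% ± 0.642 in mutant stems, and Potri.013G101000.v4.1 made up 26.6% ± 1.13 and 21.7% ± 0.716. The identifier between them, Potri.013G100901.v4.1, had 0 counts in all 6 libraries.

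On chromosome 4, Potri.004G019900.v4.1 and Potri.004G020000.v4.1 were next to each other. The first kept 2.26% of its wild type level, and the second, at 883 ± 30.7 CPM in the wild type and 108 ± 0.646 CPM in the mutant, kept 12.3%. The next identifier, Potri.004G020100.v4.1, was no member and kept 90.4%, at 408 ± 8.91 and 369 ± 5.01 CPM. A second pair on this chromosome, Potri.004G086500.v4.1 and Potri.004G086600.v4.1, had lengths of 751 and 767 bp and kept 6.56% and 26% of wild type levels of 71.0 ± 1.97 and 387 ± 16.5 CPM. Per gene length, the member with the lower wild type level kept the smaller part in both pairs, at 278 against 940 FPKM in the first pair and 94.6 against 504 FPKM in the second.

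The pairs on chromosomes 18 and 19 were more even. Potri.018G130100.v4.1 (1165 bp) and Potri.018G130300.v4.1 (1241 bp) kept 23.5% and 24.5%, at 113 ± 2.47 and 242 ± 3.45 CPM in the wild type. Potri.019G073400.v4.1 (1160 bp) and Potri.019G073700.v4.1 (1184 bp) kept 7.72% and 6.7%, at 34.1 ± 1.31 and 127 ± 5.57 CPM in the wild type. On chromosome 5, Potri.005G232400.v4.1 kept 5.86% of 75.1 ± 2.04 CPM and Potri.005G232500.v4.1 kept 17.6% of 100.3 ± 4.90 CPM. Per gene length, the member with the lower wild type level kept the larger part on chromosome 19, at 29.4 against 107 FPKM. It kept the smaller part on chromosome 5, at 30.3 against 44.9 FPKM. On chromosome 18, at 96.9 against 195 FPKM, the parts of 23.5% and 24.5% were too close to be ordered. The mutant levels there were 26.6 ± 1.55 and 59.4 ± 1.29 CPM.

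**Figure D5:**
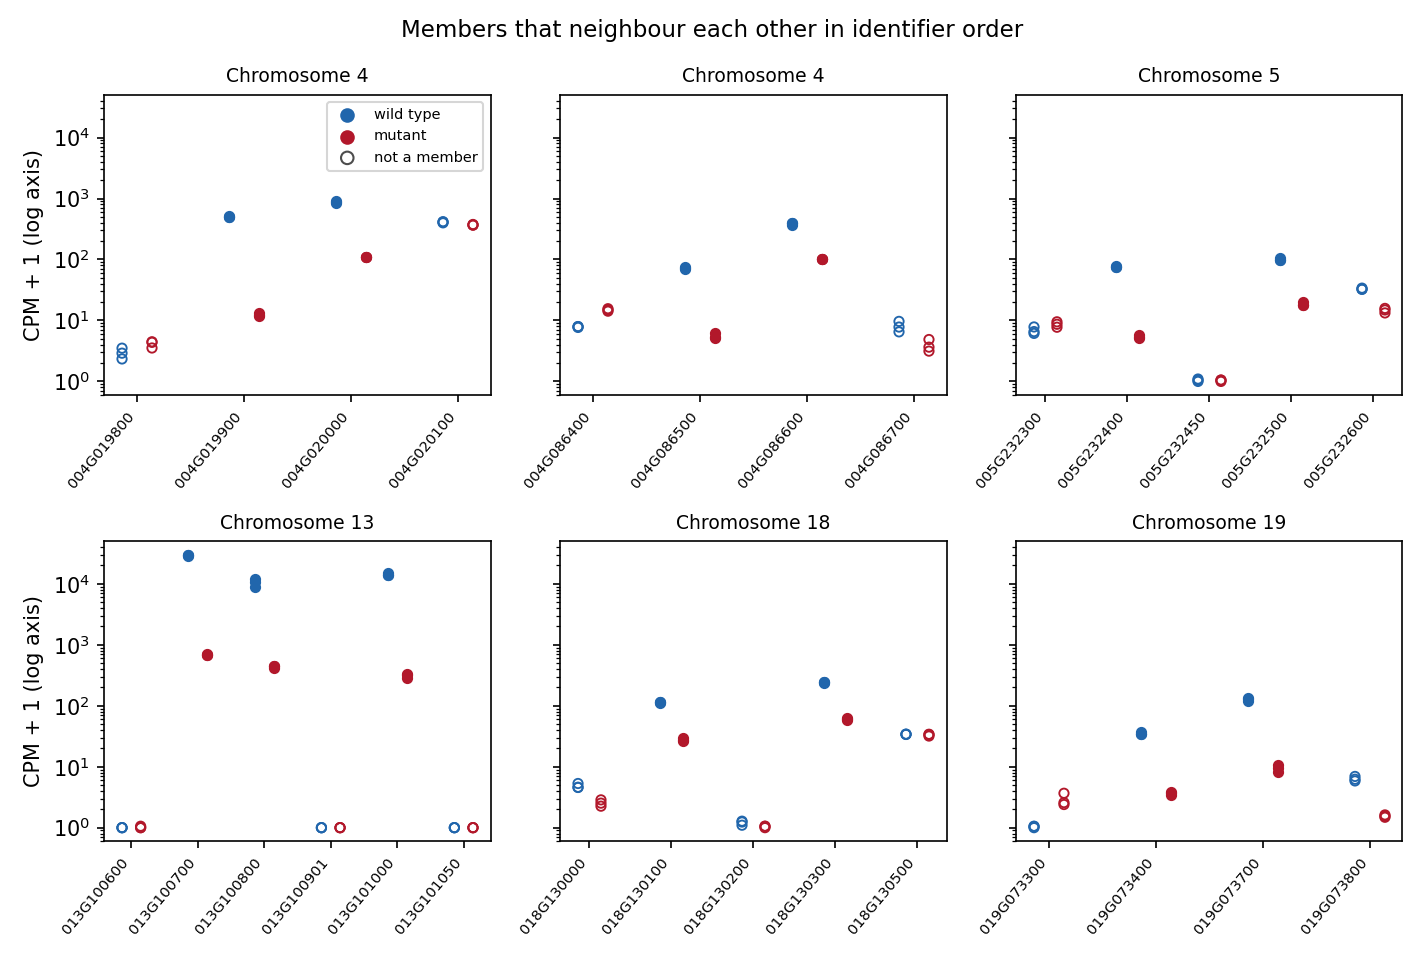
CPM + 1 per library, on log axes, of the members that neighbour each other (filled) and of the genes between and directly beside them (open), in identifier order, with wild type libraries in blue and mutant libraries in red. For each member, filled red points lie under filled blue points. Of the 10 genes with open points that could be tested, 6 were called lower, 3 higher and 1 neither.

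The genes between and beside these groups, which the rule did not take, went in both directions, more of them lower than higher. Of 15 such genes 10 could be tested, and 6 were called lower, 3 higher and 1 neither (edgeR, Benjamini-Hochberg adjusted over all genes). Among all tested genes 31% were called lower, and the difference was not tested. The log2 fold changes were -3.40, -1.44, -1.40, -1.36, -0.27 and -0.16 for the lower genes and 5.44, 0.90 and 0.57 for the higher ones. Beside the pair on chromosome 19, Potri.019G073800.v4.1 fell from 5.33 ± 0.548 to 0.549 ± 0.069 CPM (adjusted p = 1.33e-17, edgeR), a level under the minimum of the rule in the wild type. On the other side, Potri.019G073300.v4.1 rose from 1, 1 and 0 counts in the wild type libraries to 29, 28 and 49 counts in the mutant libraries (adjusted p = 2.08e-11, edgeR).

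Genes around the members were also counted over the whole set. Of 449 tested genes outside the set that stood at most 3 identifiers from a member, 157 (35%) were called lower and 133 (29.6%) higher, and their median log2 fold change was -0.04. Of 26046 other tested Potri genes outside the set, 31% were called lower and 33.6% higher, and the median was 0.01. The shares called at least 2-fold lower were 6.68% and 4.74%, and this difference was not tested.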

How the data were processed

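The deposited table holds raw counts per gene and FPKM per gene for 6 libraries, per the file headers. The counts are whole numbers. The authors' FPKM equal the counts scaled by 1 length per gene and by the column total (185484 of 185484 values above 0 gave lengths whole to 0.01 bp), and lengths were read from that relation. Aligner, counter and strand setting are not given in the sources used. For the genome build only the prefix Potri and the suffix v4.1 of the identifiers are given. Of the per-sample values 0 columns were left unused.

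Members were chosen by CPM from column totals, and the CPM values printed are of that kind. The test across all genes used edgeR 4.0.16 under R 4.3.3 (filterByExpr at 10 counts and a total of 15, TMM factors, robust quasi-likelihood fit, no block). Benjamini-Hochberg adjusted p-values under 0.05 were called. The script was tested on simulated data. P-values measure the spread between pools of plants, which the labels call biological replicates. Replicates differed by more than sampling noise (chi-square per gene of 1.84 to 2.62). DESeq2 1.42.0 and limma 3.58.1 served as alternatives.

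The members and lists were chosen with earlier results of these data known. Genes were named if they had 1 of the 10 lowest ratios or 1 of the 10 highest wild type levels, neighboured another member, stood next to the limit of 100, overlapped between genotypes, were not called (0 members for both), or had 1 of the 3 widest mutant spreads. Gene lists, tissue markers, protein families and promoter motifs needed gene names or sequences and were not used here.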

Additional observations from a re-analysis of the deposited data

How the results depend on the processing

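The 100 members were called lower under each of 16 settings of scaling, filter, tool, block or library left out, which their selection from the same libraries makes no separate support. At least 4-fold lower were 100 with TMM factors, 94 with library totals only, and 73, 93 and 94 with limma on log2(FPKM + 1), (FPKM + 0.1) and (FPKM + 0.01). Leaving out 1 library gave 99 to 100. Over all genes, 8499 were called lower, and 5606, 5569 and 5537 with limma on FPKM at those pseudocounts. FPKM are scaled by column totals, and edgeR with library totals only called 5820, so most of that drop came with the scaling alone. Leaving out 1 library gave 7984 to 8320. The 30 genes that met the stated criteria for naming kept direction and call in 480 of 480 values. Of these genes 28 are members, whose selection from the same libraries makes this no separate support. Genes singled out after their values were seen were not part of this count.

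Membership depended on the rule. A wild type minimum of 50 CPM left 62 members in the list and one of 10 CPM left 72. The first removes the 38 members under 50 CPM, and the second ranks further genes. FPKM in place of CPM left 74. That setting also applied the wild type minimum to FPKM, and 6202 genes were ranked against 11151. Members under the minimum on that scale, such as Potri.013G013900.v4.1 at 11.8 FPKM, could not be chosen. The 74 thus does not show the effect of the unit on the ratios alone. Ratio pseudocounts of 0.1 and 5 CPM left 97 and 91, and TMM-scaled CPM left 99. The median over libraries left 96, and leaving out 1 library left 97 to 98. In all 13 of these selections 46 members remained. The median log2 ratio was -2.30 over the members and -2.26 in the libraries numbered 2 when they were left out of the selection. Without the 3 most abundant members the share of counts was 1.86% (wild type) and 0.282% (mutant); without 1 library the full share was 7.24% to 7.41% and 0.421% to 0.431%.

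No pairing of wild type and mutant libraries by number was found: their deviations correlated at -0.0225 to -0.00453, and for 0 of 6 libraries was the same number the best match. A fit with the replicate block called 8391 genes lower, all 100 members among them. With under 10 counts in a mutant library, 4 members have levels limited by depth.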
